A study of Mus musculus with 11 samples.

Results

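RNA of GFP-sorted mouse β-cells was examined for 40 genes whose products fold, modify, export or degrade proteins in the endoplasmic reticulum (ER) or signal in the unfolded-protein response (UPR). The members were a fixed list of symbols, 40 of the 34728 distinct genes in the deposited table (named by symbol, or by identifier where an entry had none), and each was matched to an entry. All 40 passed the filter on low values (FPKM of 1 or more in 3 or more of 11 libraries), as did 11251 genes in all. FPKM scales the fragments of a gene by transcript length and library depth, so levels of different genes can be set side by side. WT mice gave 3 libraries, and diabetic and euglycemic βRapKOGFP mice gave 4 each, all males aged 8 weeks of the strain C57BL/6 x 129SV. In the mutants Raptor, the defining subunit of the growth kinase complex mTORC1, was deleted by a Cre recombinase that the rat insulin promoter drives, and the same recombinase switched on GFP at the Rosa26 locus. The WT littermates carried the same Cre and GFP alleles with an intact Raptor gene. The euglycemic mutants had carried an insulin pellet for 4 weeks, and the diabetic mutants had none. GFP marks every cell in which the insulin promoter drove Cre at any time, whatever that cell makes at the time of sorting. The labels do not say whether each library came from a separate mouse, so p-values measure only the spread between these libraries.

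The β-cell secretes more protein for its size than most cells, and its proinsulin enters the ER, forms disulfide bonds and folds there before it is packed into granules. When unfolded protein accumulates, 3 sensors in the ER membrane respond. IRE1α (Ern1) splices the mRNA of Xbp1, ATF6 is cut to release a transcription factor, and PERK (Eif2ak3) slows translation through eIF2α, which raises ATF4 and CHOP (Ddit3). XBP1 and ATF6 raise chaperones, folding enzymes and the degradation machinery. Loss of PERK or of Wolframin (Wfs1) causes diabetes in people.

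An ER stress element was found in the promoters of 11 of the 33 members that had a promoter sequence. The list named ER folding and UPR genes, and the UPR factor ATF6 binds this element, so the shares below only describe the list. The first form of the element, to which ATF6 and the factor NF-Y bind, was searched as the letters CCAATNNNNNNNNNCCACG on both strands in a window of the 250 bases before each RefSeq gene start (GRCm38.p6). It was found in 10 of these 33 members (30.3%) and in 35 of 27025 genes overall (0.13%). The second form of the element, ATTGGNCCACG, was found in 1 member, Herpud1, and in 10 genes overall (0.037%). The XBP1 site core TGACGTGG was found in 0 of 33 members and in 0.603% of all genes. Among 73 further ER proteostasis genes with a window, 0 held the first form, 0 held the second and 4 (5.48%) held the XBP1 core. The stretches below, in gene direction, carry the fixed letters of the element in capitals and are shown for some of the members that held it. Those of Creld2, Derl3 and Ero1lb read on the opposite strand.
Hspa5, chr2:34772013-34772055, plus strand: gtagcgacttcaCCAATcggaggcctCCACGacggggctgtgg
Dnajc3, chr14:118937815-118937857, plus strand: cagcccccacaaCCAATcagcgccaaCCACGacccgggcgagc
Syvn1, chr19:6046520-6046562, plus strand: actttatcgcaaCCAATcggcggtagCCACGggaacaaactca
Creld2, chr15:88819508-88819550, plus strand: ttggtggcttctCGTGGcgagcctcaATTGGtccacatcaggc
Derl3, chr10:75893230-75893272, plus strand: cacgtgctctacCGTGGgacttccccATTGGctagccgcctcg
Ero1lb, chr13:12565670-12565712, plus strand: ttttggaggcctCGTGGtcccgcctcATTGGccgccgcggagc
Herpud1, chr8:94386365-94386399, plus strand: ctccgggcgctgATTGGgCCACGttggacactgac
Hsp90b1, Calr, Canx and Pdia6 held the element as well, and Hsp90b1 held it at 2 places. The fixed letters lay between 65 and 47 bases before the start in Hspa5 and between 201 and 183 bases before it in Ero1lb. The 11 members with either form had a median mean level of 303 FPKM, and the 22 members with a window but no match had 62.5 FPKM. Their median log2 fold changes between diabetic and WT libraries were 0.22 and 0.20, and between euglycemic and WT libraries 0.18 and 0.41. Dnajb9, the member with the largest difference below, had a window with none of these letters.

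The libraries differed in ways that touch the results. Depth was inferred from the deposited values as 9506156 to 16659222 fragments per library. All 12 β-cell markers were at or above 1 FPKM in every library, and Ins1 and Ins2 together took 17.5 to 41.3% of the summed FPKM. The summed α-cell markers were 1081 to 2488 FPKM in WT, 4149 to 14955 in diabetic and 4950 to 23919.6 in euglycemic libraries. Gcg, the glucagon gene of α-cells, was 734 to 2116 FPKM in WT, 3432 to 14073 in diabetic and 4093 to 22921 in euglycemic libraries. The δ- and PP-cell markers were 2113 to 3622, 9113 to 25242 and 10438.5 to 26285.5 FPKM. The 17 acinar markers, whose cells are rich in ER proteins, summed to at most 62.5 FPKM in all WT libraries, diabetic replicate 4 and euglycemic replicates 2 and 3, and to between 1319 and 6186 FPKM in the other 5. Endothelial, immune and stromal markers summed to at most 95.3 FPKM and duct markers to 178 to 455 FPKM. Immediate early genes, which rise during cell dispersal, summed to 1034 to 8232 FPKM, with no call in any comparison. Of the tested markers limma called, in diabetic and in euglycemic libraries against WT, 2 and 2 of 12 for β-cells, 1 and 0 of 15 for acinar cells, 1 and 2 of 5 for α-cells, 2 and 4 of 5 for δ- and PP-cells, 1 and 2 of 5 for duct, 1 and 0 of 2 for endothelial and 1 and 1 of 4 for immune cells. Over all genes the shares called were 0.969 and 0.551%, and the direction of the marker calls is not given here. Diabetic replicate 1 had 25711 genes above 0, against 13095 to 17329 in the other libraries. Rptor, the deleted gene, was 0.948, 1.36 and 1.79 FPKM in WT, 0.937, 0.831, 0.507 and 0.485 in diabetic and 0.423, 0.481, 0.623 and 0.438 in euglycemic libraries, all mutant values below all WT values. How far cell makeup entered the values of the members was not tested, and fewer cells of a type cannot be told apart from less RNA per cell.

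The 40 genes were expressed well above most genes. Their mean levels over the 11 libraries ran from 8.11 FPKM (Ern1) to 778 FPKM (Sdf2l1), with a median of 98.0, and all 40 lay above the median of the genes tested, 4.97 FPKM. By mean level, 27 of them were among the 1000 highest genes, and 20 exceeded 100 FPKM. The soluble folding factors Sdf2l1, Hspa5 (BiP, 771), Pdia3 (615) and P4hb (578) and the membrane protein Herpud1 (671) had the highest means. The lowest were Ern1, Syvn1 (9.17), Hyou1 (10.6), Sec61g (10.7) and Ppp1r15b (10.9). Together the members took 1.43, 1.73 and 2.07% of the summed FPKM in the WT libraries, 1.64 to 2.31% in the diabetic and 1.57 to 2.62% in the euglycemic libraries, so these ranges overlapped. With Ins1 and Ins2 left out of the sum the shares were 2.41 to 2.79%, 2.80 to 3.24% and 2.47 to 3.25%.

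**Figure D1:**
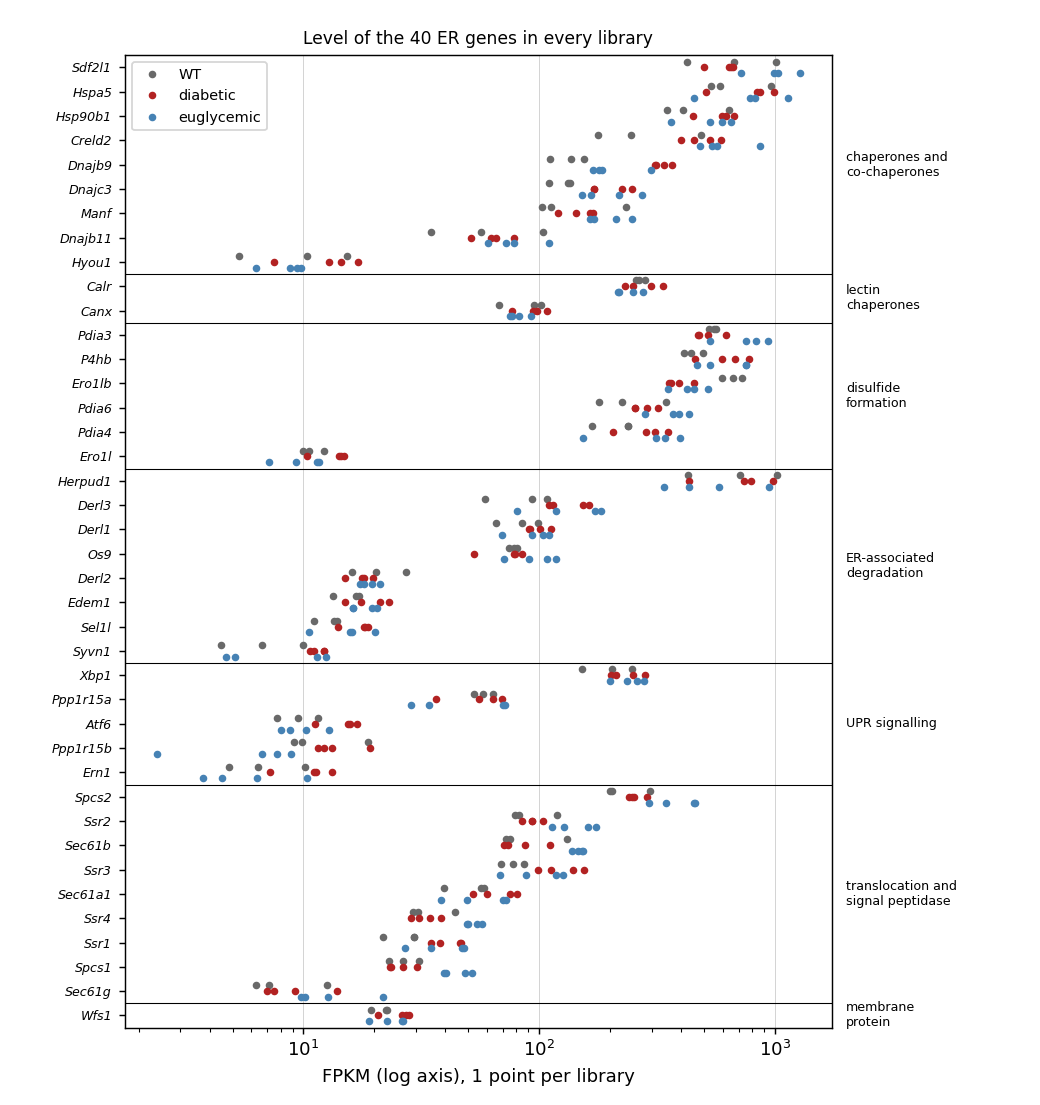
FPKM of the 40 ER genes on a log axis, with a point for each library (grey WT, red diabetic, blue euglycemic), grouped by role. Levels span from 2.39 FPKM (Ppp1r15b, euglycemic replicate 4) to 1274 FPKM (Sdf2l1, euglycemic replicate 2), and in most genes the groups overlap.

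Against WT, most of the ER genes had fold changes slightly above 0 in both mutant groups, and Dnajb9 was the member that passed the test. log2(FPKM + 1) was fitted with limma with all 11 libraries in a common fit, and a call needed an adjusted p no larger than 0.05 and 1.5-fold or more. Between diabetic and WT libraries 1 of 40 members was called, Dnajb9, against 0.969% of all genes tested. Between euglycemic and WT libraries limma called 0 of 40, against 0.551% of all genes, and 12 members reached 0.05 before adjustment, against 13.9%. Between diabetic and euglycemic libraries it called 0 of 40, against 0.00889% of all genes, and 12 members reached 0.05 before adjustment, against 20.6%. With both mutant groups averaged against WT, 1 member was called, again Dnajb9, against 1.05%. The median log2 fold change of the members was 0.23 for diabetic against WT, where 31 of 40 were above 0, and 0.29 for euglycemic against WT, where 30 were above 0, while the median of all genes was 0.01 and −0.01. Without WT replicate 2 the diabetic median fell to 0.08, with 26 above 0, and without WT replicate 1 it was 0.34. These comparisons share the WT libraries. Between the mutant groups the median was 0.03, with 23 members above 0.

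Before adjustment the counts of members were higher than the background in the upward direction against WT. At the 0.05 level without adjustment, 8 of 40 members were higher in diabetic than in WT libraries, against 6.15% of all genes, and 1 was lower, against 5.74%. In euglycemic libraries 10 members were higher, against 7.33%, and 2 were lower, against 6.52%. The count of higher members fell to 4 in diabetic libraries without WT replicate 2 or without diabetic replicate 3 and to 6 in euglycemic libraries without WT replicate 2, and it was 15 in euglycemic libraries without euglycemic replicate 4. In these settings 10.1, 9.78, 7.82 and 14.9% of all genes reached 0.05 in either direction. With all libraries the shares were 11.9% (diabetic) and 13.9% (euglycemic). Between the mutant groups 5 were higher in diabetic libraries, against 10.6%, and 7 were lower, against 10.0%. Diabetic and WT libraries did not overlap in 7 members that were higher, against 6.67% of all genes, and in 1 that was lower, against 6.88%. Euglycemic and WT libraries did not overlap in 5 that were higher, against 5.91%, and in 2 that were lower, against 5.02%. Diabetic libraries lay entirely above euglycemic libraries in 2 members, against 6.85%, and entirely below them in 6, against 7.42%.

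**Figure D2:**
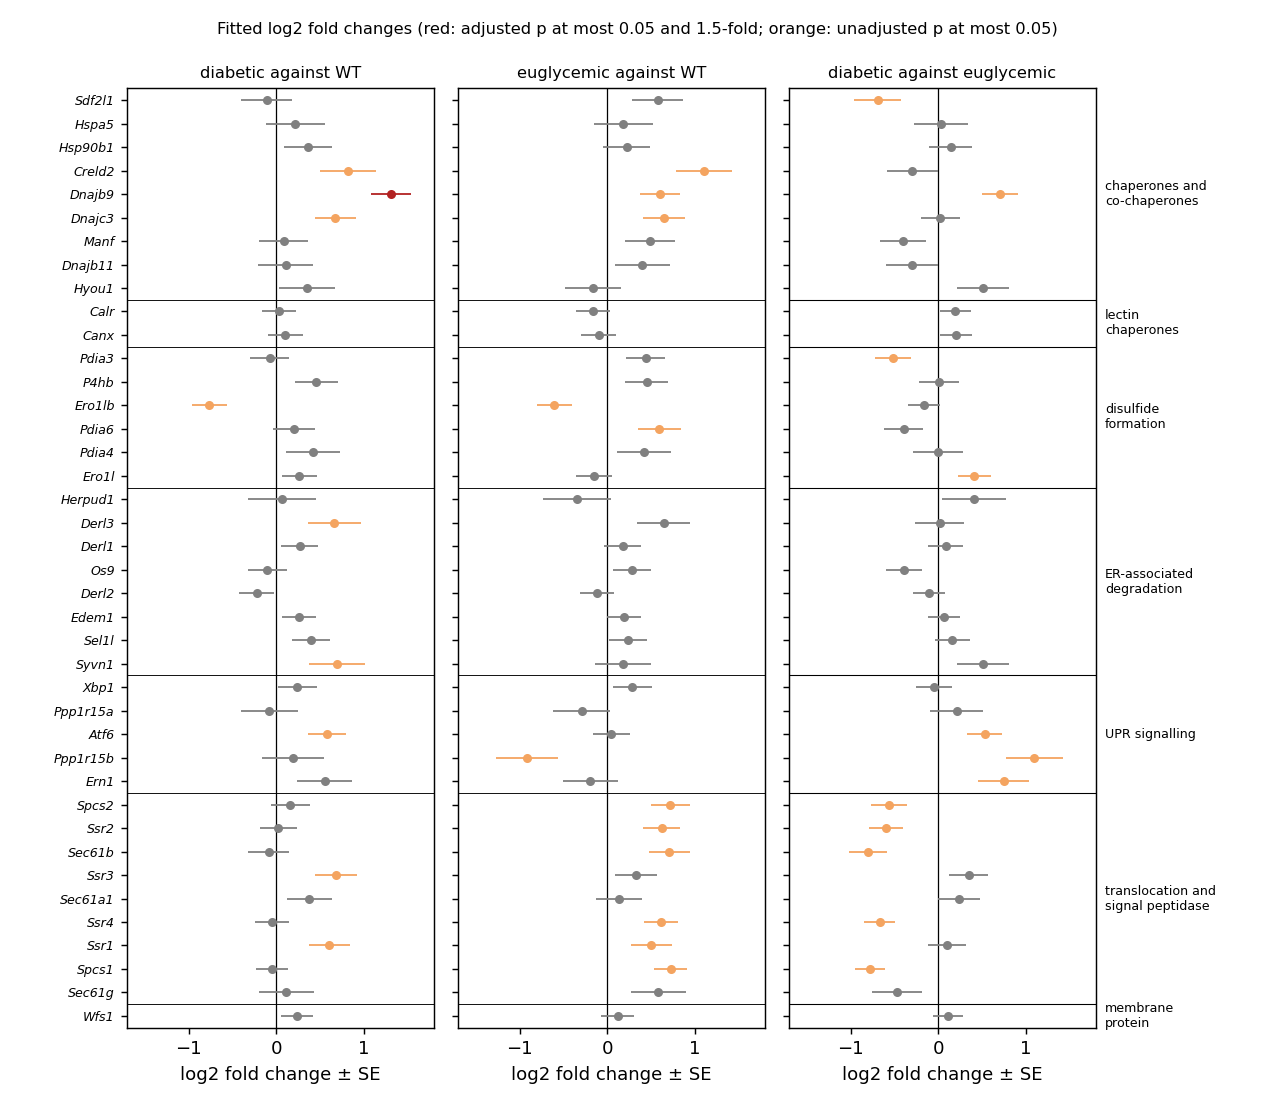
Fitted log2 fold change of each member with its standard error, by role, for the 3 comparisons (red, called; orange, p within 0.05 before adjustment only; grey, neither). Dnajb9 at 1.31 is the red point, and Ero1lb at −0.76 lies farthest to the left in the first panel.

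Among the 9 chaperones and co-chaperones, 8 were above 0 in diabetic and 8 in euglycemic libraries. Dnajb9 (ERdj4, ENSMUSG00000014905, chromosome 12 from 44205559 to 44210326 of GRCm38) is a J-domain partner of BiP that also restrains IRE1α. Its FPKM was 111, 154 and 137 in WT, 313, 308, 366 and 340 in diabetic, and 169, 179, 185 and 298 in euglycemic libraries. Every diabetic library exceeded every WT and every euglycemic library, and every euglycemic library exceeded every WT library. Dnajb9 rose in diabetic libraries by 1.31 on the log2 scale (SE 0.22, adjusted p = 0.0177), and by 0.96 in both mutant groups together (SE 0.20, adjusted p = 0.0412). The euglycemic difference from WT was 0.60 (SE 0.22, adjusted p = 0.263), and that between the mutant groups was 0.71 (SE 0.21, adjusted p = 0.133). Acinar markers summed to 25.3 FPKM in diabetic replicate 4, where Dnajb9 was 340 FPKM, and to 1578 to 3650 FPKM in the other diabetic libraries, where it was 308 to 366 FPKM. The largest acinar sum, 6186 FPKM, was in euglycemic replicate 4, which had the highest euglycemic value, 298 FPKM against 169 to 185, and the part of acinar RNA in these values was not tested. The diabetic call was lost without any 1 WT library or diabetic replicate 3 (adjusted p = 0.0559 to 0.0807), with no filter on low values (0.0755) and with the acinar score as a covariate (0.107), with log2 fold changes from 1.16 to 1.42. That in both mutant groups together was lost without any 1 WT library, any 1 diabetic library or euglycemic replicate 2 or 3, with no filter, after rescaling by the median of ratios, with the trend over gene length given further on removed and with the acinar covariate (adjusted p = 0.0553 to 0.199), with log2 fold changes from 0.83 to 1.06.

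Creld2, a secreted disulfide isomerase-like protein induced by ATF6, had the largest difference of the members from WT in euglycemic libraries. Its FPKM was 486, 178 and 244 in WT, 453, 399, 528 and 591 in diabetic, and 483, 861, 569 and 538 in euglycemic libraries. WT replicate 1 reached into both mutant groups, and the other WT libraries were below all mutant libraries. The log2 fold changes were 0.82 (SE 0.32, adjusted p = 0.319) and 1.11 (SE 0.32, adjusted p = 0.163). They were 0.50 and 0.79 without WT replicate 2 and 1.22 and 1.51 without WT replicate 1. Dnajc3 (P58IPK), which protects the β-cell by binding misfolded protein and damping PERK, was 135, 110 and 132 FPKM in WT, 224, 170, 246 and 171 in diabetic, and 217, 273, 165 and 152 in euglycemic libraries. No mutant library overlapped the WT libraries, although the differences of 0.68 (SE 0.24) and 0.65 (SE 0.24) did not pass the adjusted test (adjusted p = 0.257 and 0.254).

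For the master chaperone BiP no difference passed the test in the fit that weighted all libraries equally. Hspa5 was 961, 534 and 583 FPKM in WT, 863, 508, 837 and 993 in diabetic, and 782, 1139, 824 and 455 in euglycemic libraries. The 3 groups covered much the same range, and libraries within a group differed by more than the groups did. The log2 fold changes were 0.22 in diabetic and 0.18 in euglycemic libraries (SE 0.33 for each, adjusted p = 0.862 and 0.830). With weights estimated for each library Hspa5 was called in euglycemic libraries (0.67, adjusted p = 0.0388), where 20.3% of all genes were called, and not in diabetic libraries (0.49, adjusted p = 0.228). With 1 library left out the diabetic value ranged from 0.05 (without WT replicate 2) to 0.48 (without WT replicate 1) and the euglycemic value from −0.01 (without euglycemic replicate 2) to 0.45 (without WT replicate 1). Hsp90b1 (GRP94), the ER form of HSP90, was 637, 347 and 405 FPKM in WT, 593, 448, 667 and 622 in diabetic, and 531, 651, 593 and 362 in euglycemic libraries (log2 fold changes 0.36 and 0.22, SE 0.27 for each). WT replicate 1 was again close to the mutant libraries. Without it the log2 fold changes of Hsp90b1 were 0.62 and 0.48, and without WT replicate 2 they were 0.18 and 0.04. The other chaperones, Sdf2l1, Manf, Dnajb11 and Hyou1, had log2 fold changes between −0.11 and 0.35 in diabetic and between −0.16 and 0.58 in euglycemic libraries. Sdf2l1, a BiP cofactor, was lower in all 4 diabetic libraries (500 to 662 FPKM) than in all 4 euglycemic libraries (717 to 1274 FPKM), with a difference of −0.69 (SE 0.27, adjusted p = 0.188).

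The lectin chaperones Calr and Canx, which hold glycoproteins during folding, were near WT. Calr was 266, 258 and 280 FPKM in WT, 249, 230, 334 and 297 in diabetic, and 250.5, 276, 217 and 219 in euglycemic libraries. The log2 fold changes of Calr were 0.04 and −0.16 (SE 0.19 for each), and those of Canx were 0.11 and −0.10 (SE 0.20 for each).

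Of the 6 disulfide enzymes 4 were above 0 and 2 below it in each mutant group, and the pancreatic oxidase Ero1lb was below in both. Ero1lb (ERO1β, ENSMUSG00000057069, chromosome 13 from 12565874 to 12611396) supplies oxidizing power to protein disulfide isomerases and is enriched in β-cells. Its FPKM was 725, 598 and 662 in WT, 454, 391.7, 361 and 354 in diabetic, and 521, 425, 453 and 353 in euglycemic libraries. All 8 mutant libraries lay below all WT libraries. The log2 fold changes were −0.76 in diabetic (SE 0.20, adjusted p = 0.111) and −0.60 in euglycemic libraries (SE 0.20, adjusted p = 0.220), neither past the adjusted test. With the trend over gene length described below removed, the diabetic difference was −0.83 and passed it (adjusted p = 0.0246). Its widely expressed relative Ero1l was 10.6, 12.2 and 9.95 FPKM in WT and 14.8, 14.1, 14.4 and 10.3 in diabetic libraries. In euglycemic libraries Ero1l was 7.17 to 11.6 FPKM. The isomerases P4hb, Pdia4 and Pdia6, which form and reshuffle disulfides, were higher by 0.20 to 0.46 in diabetic and by 0.42 to 0.60 in euglycemic libraries, and the log2 fold changes of Pdia3 were −0.07 and 0.44, with no adjusted p under 0.297.

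**Figure D3:**
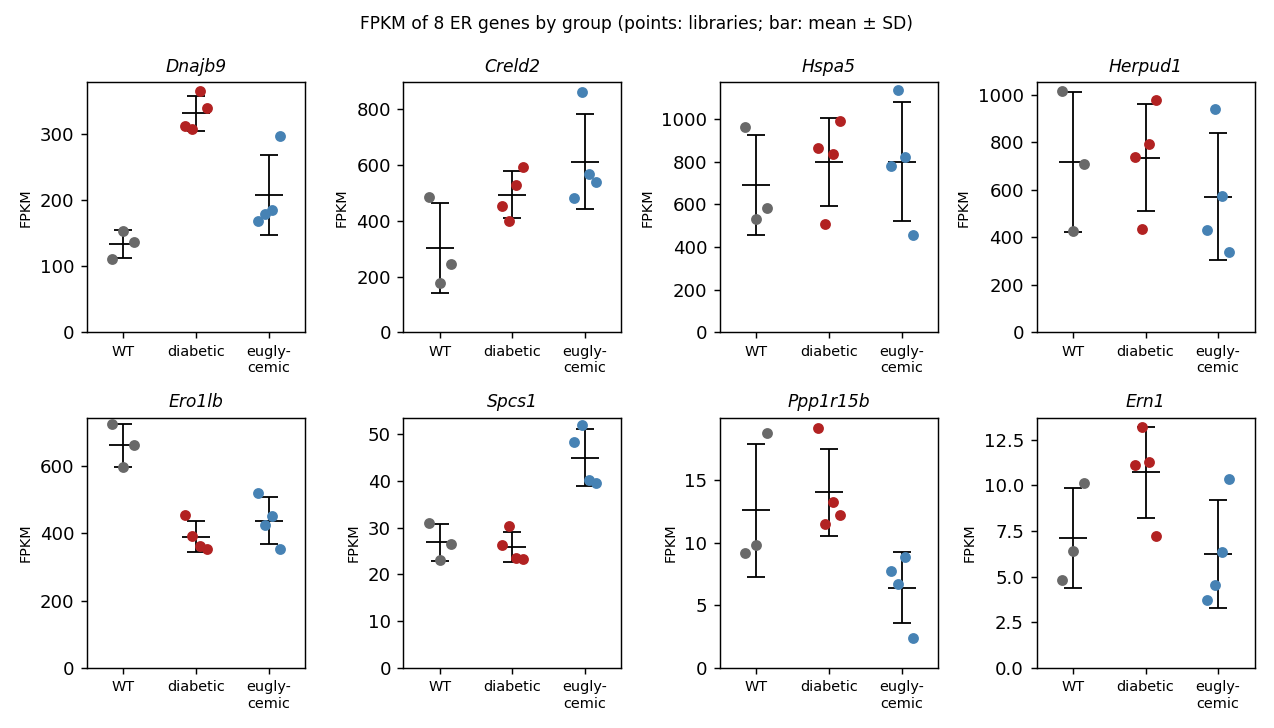
FPKM of 8 members by group on linear axes from 0, with a point per library and bars for the mean and SD. Dnajb9 separates the diabetic libraries (308 to 366) from all others (111 to 298), Ero1lb separates WT (598 to 725) from both mutant groups (353 to 521), and Hspa5 and Herpud1 overlap throughout.

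Of the 8 members of ER-associated degradation, which returns misfolded protein to the cytosol, 6 were above 0 in each mutant group and none was called. Derl3, a channel subunit of secretory cells, was 107, 58.7 and 92.8 FPKM in WT, 115, 110, 153 and 163 in diabetic, and 80.5, 182, 173 and 118 in euglycemic libraries. All diabetic libraries exceeded the WT libraries, and euglycemic replicate 1 lay among them. The log2 fold changes were 0.66 and 0.65 (SE 0.30 for each, adjusted p = 0.414 and 0.367). Syvn1 (HRD1), the ubiquitin ligase of the pathway, was 4.47, 6.68 and 9.93 FPKM in WT and 10.6 to 12.2 in diabetic libraries, and in euglycemic libraries it divided into 4.71 and 5.14 against 11.4 and 12.4. Its partner Sel1l was above WT in all diabetic libraries as well, at 14.1 to 18.7 against 11.04 to 13.9 FPKM (log2 fold change 0.40, SE 0.21). Herpud1, a UPR target that assembles the ligase, was 1018, 426 and 709 FPKM in WT, 739, 433, 792 and 979 in diabetic, and 431, 943, 576 and 339 in euglycemic libraries. Its spread within each group exceeded every difference between groups (log2 fold changes 0.07 and −0.34, SE 0.39 for each). Derl1, Derl2, Edem1 and Os9 had log2 fold changes between −0.22 and 0.28 in both mutant groups.

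Among the 5 UPR signalling genes, 4 were above WT in diabetic and 2 in euglycemic libraries, with no call. Ern1 (IRE1α) was 4.83, 6.40 and 10.1 FPKM in WT, 11.1, 13.2, 11.3 and 7.23 in diabetic, and 3.74, 4.53, 6.35 and 10.3 in euglycemic libraries. The diabetic mean exceeded the euglycemic mean, but diabetic replicate 4 and euglycemic replicate 4 crossed over (difference 0.75, SE 0.29, adjusted p = 0.186). Xbp1, whose total level does not show splicing, was 246, 152 and 204 FPKM in WT, 202, 211, 249 and 280 in diabetic, and 199, 234, 261 and 277 in euglycemic libraries (log2 fold changes 0.24 and 0.29, SE 0.22 for each). Those of Xbp1 were 0.06 and 0.10 without WT replicate 2 and 0.40 and 0.45 without WT replicate 1. Atf6 was 7.70 to 11.6 FPKM in WT, 11.2 to 16.9 in diabetic and 8.05 to 12.8 in euglycemic libraries (log2 fold changes 0.58, adjusted p = 0.286, and 0.05).
Ppp1r15b (CReP) and Ppp1r15a (GADD34) direct the phosphatase that reverses eIF2α phosphorylation. Ppp1r15b was 9.14, 9.85 and 18.7 FPKM in WT, 19.2, 11.5, 13.2 and 12.2 in diabetic, and 7.72, 6.70, 8.82 and 2.39 in euglycemic libraries. Every euglycemic library lay below every other library. The difference from WT was −0.91 (SE 0.35, adjusted p = 0.279), and diabetic exceeded euglycemic libraries by 1.10 (SE 0.33, adjusted p = 0.133). Without euglycemic replicate 4 these differences of Ppp1r15b were −0.57 and 0.76. An antisense gene covers 11.4% of its exon bases, and no source states whether the counting used strand. Ppp1r15a had log2 fold changes of −0.08 and −0.29 (SE 0.33 for each).

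All 9 genes of translocation and signal peptide removal were above 0 in euglycemic libraries, and 6 of them reached 0.05 before adjustment, against 7.33% of all genes, with none called, against 0.551%. Fold changes between euglycemic and WT libraries also went with gene length, and with the length trend removed those 6 were 0.51 (Sec61b), 0.55 (Spcs1), 0.75 (Spcs2), 0.67 (Ssr1), 0.47 (Ssr2) and 0.55 (Ssr4), again with no call. Spcs1 and Spcs2, subunits of signal peptidase, were 26.8 ± 3.95 (SD, n = 3) and 233 ± 54.0 FPKM (SD, n = 3) in WT. In euglycemic libraries they were 45.0 ± 6.15 (SD, n = 4) and 385 ± 81.7 FPKM (SD, n = 4). Spcs1 was 30.9, 23.0 and 26.6 FPKM in WT, 26.3, 30.3, 23.5 and 23.4 in diabetic, and 48.2, 52.0, 40.2 and 39.5 in euglycemic libraries. The euglycemic libraries lay above all others, while WT and diabetic libraries coincided. The difference from WT was 0.73 in euglycemic libraries (SE 0.19, adjusted p = 0.131), and diabetic against euglycemic libraries gave −0.77 (SE 0.17, adjusted p = 0.122). Exons of Glt8d1 on the other strand cover 16.3% of the exon bases of Spcs1. Sec61b, of the translocation channel, and Ssr4, of the translocon-associated TRAP complex, had the same order, at 71.1 to 111 and 28.5 to 38.3 FPKM in diabetic against 138 to 153 and 49.5 to 57.3 FPKM in euglycemic libraries. Ssr2, Sec61g and Sec61a1 had log2 fold changes of 0.62, 0.58 and 0.14 in euglycemic and of 0.03, 0.11 and 0.38 in diabetic libraries.
The TRAP subunits Ssr1 and Ssr3 had log2 fold changes above 0 in both mutant groups, with no call. Ssr1 was 21.7, 29.5 and 29.3 FPKM in WT, 46.7, 37.9, 46.3 and 34.6 in diabetic, and 48.1, 47.2, 34.6 and 27.1 in euglycemic libraries. All diabetic libraries exceeded the WT libraries in Ssr1 and in Ssr3 (log2 fold changes 0.61 and 0.68, adjusted p = 0.298 and 0.264), and the euglycemic log2 fold changes were 0.51 and 0.33 (adjusted p = 0.349 and 0.555). Without WT replicate 1, 8 members were called between euglycemic and WT libraries, namely Creld2, Manf, Pdia6, Sec61b, Spcs1, Spcs2, Ssr2 and Ssr4, against 4.76% of all genes. Between the mutant groups 3 were then called, Sec61b, Spcs1 and Ssr4, against 3.4%.

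Wfs1, an ER membrane protein of the β-cell whose loss causes Wolfram syndrome, was 19.4, 22.3 and 22.7 FPKM in WT, 28.0, 27.2, 26.1 and 20.8 in diabetic, and 26.5, 22.7, 19.0 and 26.1 in euglycemic libraries. The groups overlapped, with log2 fold changes of 0.23 and 0.12 (SE 0.18 for each, adjusted p = 0.674 and 0.799).

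The differences between the mutant groups went with gene length. Over the 11213 tested genes with an exon length, the median log2 fold change of diabetic against euglycemic libraries was −0.31 in the shortest of 5 length classes (2243 genes of 27 to 2059 bases) and 0.26 in the longest (2242 genes of 7053 bases or more). The 7 members that were lower in diabetic libraries before adjustment had 1108 (Sdf2l1) to 4221 (Spcs2) exon bases, with Sec61b at 1271 and Spcs1 at 1546. The 5 that were higher had 2549 (Dnajb9) to 9231 (Atf6), with Ern1 at 8173 and Ppp1r15b at 5594. Across genes, which are not independent replicates, Spearman's correlation of this fold change with length was 0.47 over all tested genes and 0.55 over the 40 members, and that of the fold change between euglycemic and WT libraries was −0.32 and −0.53. Short genes were high relative to the mean of all libraries in WT replicate 1 (median deviation 0.30 in the shortest class) and in euglycemic replicates 1, 2 and 3 (0.27, 0.24 and 0.21). They were low in diabetic replicates 1 and 2 (−0.28 and −0.22) and in WT replicates 2 and 3 (−0.20 and −0.18). With each library's trend over length removed, the difference between the mutant groups was −0.36 for Sdf2l1, −0.48 for Sec61b, −0.48 for Spcs1, 0.52 for Ern1, 0.28 for Atf6 and 0.97 for Ppp1r15b, with no call. It was −0.43 for Pdia3, −0.35 for Ssr2, −0.58 for Ssr4 and 0.30 for Ero1l. All of these moved toward 0, while Dnajb9 went from 0.71 to 0.87 and Spcs2 from −0.56 to −0.61. Dnajb9 (2549 bases) was 1.37 higher in diabetic than in WT libraries after this step (adjusted p = 0.0227).

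**Figure D4:**
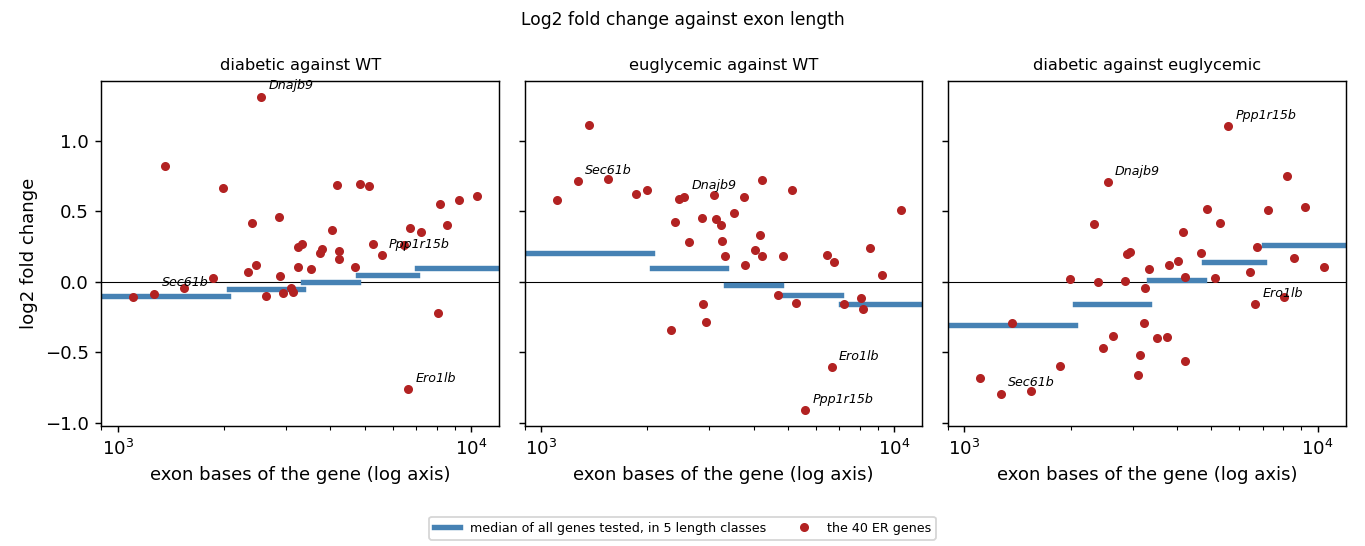
Log2 fold change of each member (red) against its exon length on a log axis, with the median of all genes tested in each of 5 length classes (blue bars, the outer ones cut at the axis ends). The blue bars climb from −0.31 to 0.26 in the comparison of the mutant groups and run the other way, from 0.20 to −0.16, between euglycemic and WT libraries.

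The same libraries were at the extremes of their group in many members. WT replicate 1 was the highest WT library in 22 of 40 members and the lowest in 14, and WT replicate 2 was the lowest in 22. Euglycemic replicate 2 was the highest of its group in 23 members, and euglycemic replicate 4, which had the largest acinar sum, was the lowest in 25. Of the diabetic libraries, replicate 3 was the highest in 16 members and replicate 4 the lowest in 18. Herpud1 illustrates this, at 1018 FPKM in WT replicate 1 and 943 in euglycemic replicate 2 against 426 in WT replicate 2 and 339 in euglycemic replicate 4.

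**Figure D5:**
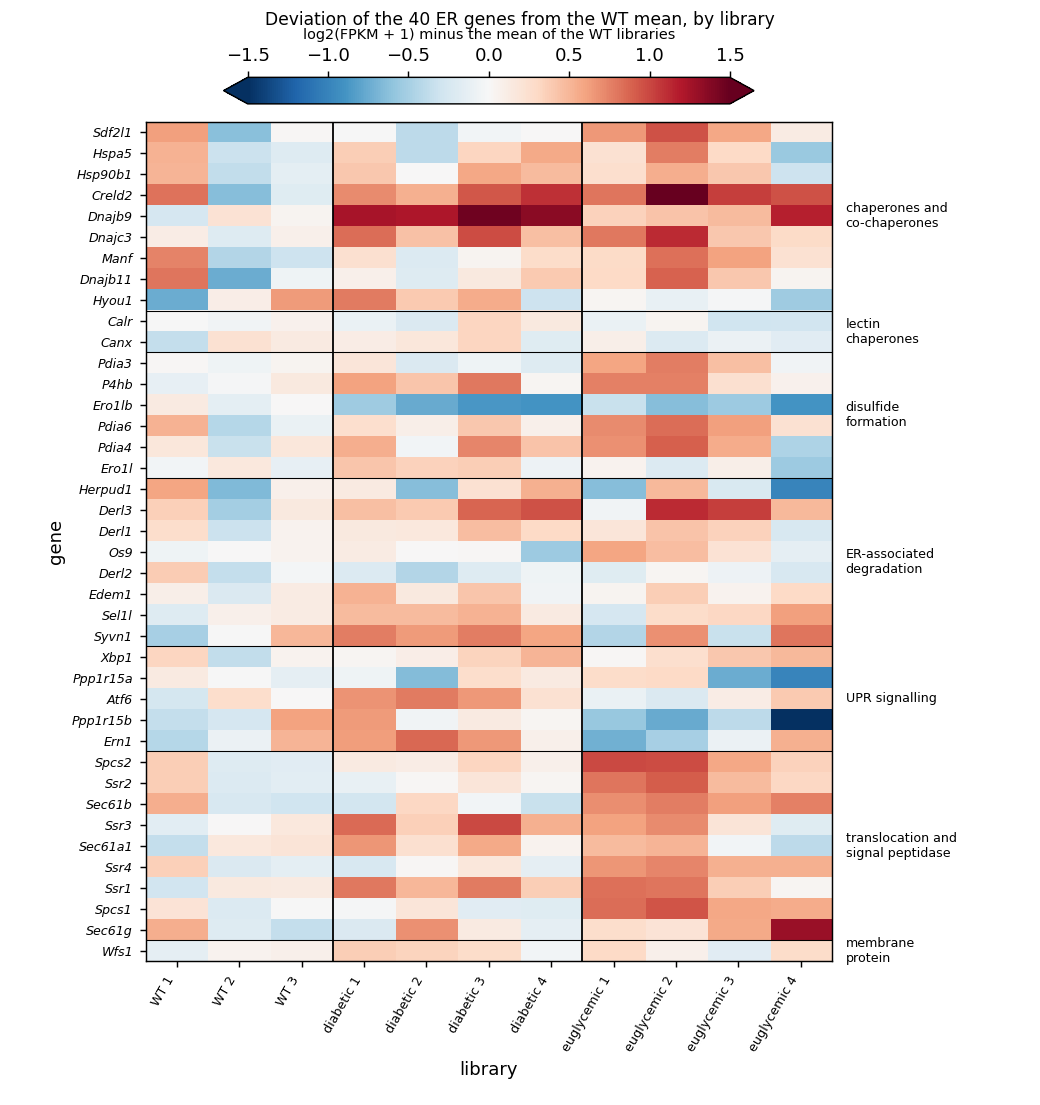
Deviation of log2(FPKM + 1) from the WT mean for each member (rows, by role) and library (columns, by group). Dnajb9 is dark red in the diabetic columns, Ero1lb is blue in all 8 mutant columns, and WT replicate 1 and WT replicate 2 carry opposite colors in most chaperones.

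Of 94 further ER proteostasis genes, 91 were tested. Between diabetic and WT libraries 69 of these were above 0, with a median of 0.16 and no call by limma, against 0.969% of all genes, and before adjustment 15 were higher and 2 lower at 0.05, against 6.15 and 5.74%. Between euglycemic and WT libraries 63 were above 0, with a median of 0.28 and 2 calls, against 0.551%, and before adjustment 24 were higher and 5 lower, against 7.33 and 6.52%. Between the mutant groups 36 were above 0, with no call, and before adjustment 12 were higher and 16 lower in diabetic libraries, against 10.6 and 10.0%. Those calls were Fkbp11 and Krtcap2, and with both mutant groups together Fkbp11 and Dpagt1 were called, against 1.05%. They are given for the main fit only. Fkbp11, a proline isomerase of secretory cells, rose in euglycemic libraries by 1.42 (SE 0.26, adjusted p = 0.0313), from 156, 92.9 and 111 FPKM in WT to 357, 445, 217 and 287 FPKM. Krtcap2, a subunit of the oligosaccharyltransferase that attaches glycans, rose by 1.12 (SE 0.23, adjusted p = 0.0468). It has 1522 exon bases, in the shortest length class, whose median between euglycemic and WT libraries was 0.20. Exons of Trim46 on the other strand cover 15.7% of the exon bases of Krtcap2. Dpagt1, which starts glycan assembly, rose by 0.93 in both mutant groups together (SE 0.20, adjusted p = 0.0449), and all 16 tested glycosylation genes were above 0 in that contrast. Fkbp7, another ER proline isomerase, gave −1.03 in diabetic and −0.98 in euglycemic libraries (adjusted p = 0.140 and 0.169).

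The PERK branch showed no call. Eif2ak3 was 12.9, 7.81 and 11.97 FPKM in WT, 25.1, 21.3, 18.8 and 16.2 in diabetic, and 6.39, 8.59, 12.8 and 8.77 in euglycemic libraries. The diabetic libraries lay above all others, with a difference of 0.85 from WT (SE 0.25, adjusted p = 0.154) and of 1.09 from euglycemic libraries (SE 0.23, adjusted p = 0.122). Its downstream factor Ddit3 (CHOP) was 288, 90.4 and 145 FPKM in WT, 85.1, 89.6, 144 and 214 in diabetic, and 73.7, 160, 178 and 118 in euglycemic libraries. WT replicate 1 was the highest of all, and the log2 fold changes were −0.33 and −0.31 (SE 0.42 for each). Atf4 gave −0.17 and −0.15 (SE 0.27 for each). Between the mutant groups Fkbp2, which was 141 to 234 FPKM in diabetic and 331 to 401 FPKM in euglycemic libraries, and Tmx4, a membrane thioredoxin at 14.01 to 18.3 against 3.92 to 9.56 FPKM, had differences of −1.06 and 1.08 (adjusted p = 0.122 for each). Fkbp2 has 1640 exon bases and Tmx4 10907. They fall in the shortest and the longest length class, whose medians between the mutant groups were −0.31 and 0.26.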

How the data were processed

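The authors deposited an FPKM value per gene and library from paired-end poly-A RNA-seq of FACS-sorted GFP+ β-cells. The paper's methods name Tophat and Cufflinks with mm10, and the submitters' processing notes name HISAT2 2.0.4, StringTie 1.3.0 and edgeR with mm10. The choice between these could not be settled from the values. Columns KI1 to KI4 were read as the insulin-treated knockouts, the only group left without columns. Of 34745 entries, 34267 matched a symbol, and 17 repeats of a symbol were left out. Fragment totals were inferred from 4509 single-exon genes (92.7 to 97.2% of low values were whole multiples of a step, tolerance 0.02), which limits precision to 0.0600 to 0.105 FPKM per fragment on 1 kilobase.

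log2(FPKM + 1) was fitted with limma 3.58.1 in R 4.3.3 (lmFit, contrasts.fit and eBayes with a trend) with Benjamini-Hochberg adjustment over 11251 genes. Fold changes on this scale understate low genes. The fit was tested on simulated data. Other settings were the pseudocount, filter, scaling, trend, weights, covariates, replicate block and leaving out each library. The restriction to acinar-poor libraries and the removal of the length trend (loess on GENCODE vM21 exon lengths) were added after the data were seen. The 40 members, the other ER proteostasis genes and the marker lists were chosen with earlier results of these data known. Values in every library were given for Hspa5, Hsp90b1, Ero1lb, Xbp1, Ern1, Wfs1, Herpud1, called members and, in each role, the member with the largest difference of both mutant groups from WT. Of the other ER genes, those called, the 3 with the smallest p per comparison, Ddit3, Atf4 and Eif2ak3 were named. Dnajc3, Ero1l, Syvn1, Sel1l, Sdf2l1, Spcs1 and the remaining members were described after their values were seen. Promoter windows were from RefSeq (GRCm38.p6). Python 3.11.15 with pandas 2.3.3, numpy 2.4.6 and matplotlib 3.10.9 was used.

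Same-numbered libraries of different groups did not deviate together, so replicate numbers were not used as pairs.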

Additional observations from a re-analysis of the deposited data

Results flagged for a closer look

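Within groups of 4 libraries, 4 values stood apart from the other 3 by Dixon's criterion on the gap over the range, of 98 groups examined (both mutant groups for the 40 members and 9 other named ER genes), and chance flags about 1 in 20. All 4 were values of members. Dnajb9 in euglycemic replicate 4 was 298 FPKM, against 169 to 185 in the other euglycemic libraries. That library also had the largest acinar sum, 6186 FPKM, and its part in the value was not tested. Sdf2l1 in diabetic replicate 2 was 500.0 FPKM, against 638 to 662 in the other diabetic libraries. In diabetic replicate 4, Ero1l was 10.3 FPKM against 14.1 to 14.8, and Sel1l was 14.1 FPKM against 18.1 to 18.7.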

How the results depend on the processing

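Across the settings tried, the median log2 fold change of the members kept its sign against WT, and with each library left out in turn it ranged from 0.08 to 0.34 (diabetic), 0.22 to 0.41 (euglycemic) and 0.17 to 0.40 (both mutant groups), and from −0.06 to 0.16 between the mutant groups. Library weights raised it to 0.37 in diabetic and 0.46 in euglycemic libraries and to 0.44 in both groups together, and the 6 acinar-poor libraries alone, which hold only 1 diabetic and 2 euglycemic libraries, gave −0.20 between the mutant groups and 0.07 in diabetic libraries, where 2 members were higher before adjustment. The number of members called moved more. Library weights gave 5 (diabetic), 17 (euglycemic), 12 (both) and 11 (between the mutant groups), where 4.9, 20.3, 9.92 and 10.8% of all genes were called. The immediate early gene score as a covariate gave 3 and 2 in diabetic and in both groups, where 1.87 and 1.49% of all genes were called. Removal of the length trend gave 2 in diabetic libraries, where 1.35% of all genes were called. With the acinar score as a covariate the count against WT was 0 in diabetic and in both groups, where 0.391 and 0.471% of all genes were called. With no filter it was 0 in both contrasts as well, where 0.0803 and 0.0839% were called. It was 0 in both groups after rescaling by the median of ratios, where 1.07% of all genes were called. It was also 0 in the acinar-poor libraries, where the lone diabetic library is assumed to vary like the others and 0.00958% (diabetic) and 0.345% (both) of all genes were called, so that 0 says nothing about the members. With the replicate block the count was 0 in both contrasts, where 0.4 and 0.471% of all genes were called (Dnajb9 adjusted p = 0.0701 and 0.160). Same-numbered libraries deviated from their group means with a mean correlation of −0.132 (n = 10 pairs) against 0.0433 (n = 30) for different numbers, so the numbers are not taken as pairs. With each library left out in turn the counts ranged from 0 to 1 (diabetic and both groups), 0 to 8 (euglycemic) and 0 to 3 (between the mutant groups), with the 8 and the 3 reached without WT replicate 1. In both groups together the 1 call was Creld2 without WT replicate 1 (against 1.23% of all genes) and Ero1lb with the length trend removed (against 1.49%). Leaving out 1 library also turned the sign of 6 uncalled differences from WT among the members chosen by rule, Hspa5 (−0.01 without euglycemic replicate 2), Ern1 (0.06 in euglycemic libraries without WT replicate 3 and −0.03 in both groups without WT replicate 1), Herpud1 (−0.27 in diabetic libraries without WT replicate 2, below 0 there without diabetic replicate 4, and 0.16 in both groups without WT replicate 1) and Calr (−0.06 in diabetic libraries without diabetic replicate 3, and below 0 without diabetic replicate 4). Uncalled values from the same step that moved by over 1.5 times included Derl3 (0.41 and 0.39 in diabetic and euglycemic libraries without WT replicate 2), Herpud1 (euglycemic, −0.68 without WT replicate 2 to −0.05 without WT replicate 1), Ern1 (diabetic, 0.34 without WT replicate 1) and Wfs1 (euglycemic, 0.05 without WT replicate 1 to 0.21 without euglycemic replicate 3). The cause was not tested. In the acinar-poor libraries the difference of Ero1l between the mutant groups, diabetic replicate 4 alone against 2 euglycemic libraries, was −0.0136 (adjusted p = 0.997), which is no test of its direction. Rescaling to TPM moved the median of all genes to 0.14 between the mutant groups, so fold changes there are relative to that shift. By the inferred depths, 1 fragment on 1 kilobase equals at most 0.105 FPKM, below the lowest value of any member, 2.39 FPKM.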
